A study of Oryza sativa with 12 samples.

Results

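A set of 134 rice loci was described whose transcript level differed strongly between an OsPEP1 RNAi line and the wild type in roots, while reads were still present in the lower genotype. The set was chosen from the measured values among 55801 listed loci with a rice locus ID. A locus was taken when its mean level differed by at least 4-fold between the genotypes, in the same direction, both under PEP1 and under ethanol. Levels are in CPM, read counts scaled to a library total of 1000000, and 0.2 CPM was added to both means before the fold was taken. The mean of the higher genotype had to reach 2 CPM in both treatments, and the lower genotype needed more than 2 counts in at least 1 of its 6 libraries. The RNAi line was the higher genotype for 84 loci and the wild type for 50. Another 98 loci met the fold and the level but had at most 2 counts in every library of the lower genotype, and they are called on/off loci here.

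The libraries were made from roots of 7-day-old seedlings of cultivar XS134, grown in a greenhouse. The study compared 4 groups of 3 libraries, namely wild type with ethanol, wild type with 1 µM PEP1, the RNAi line Ri1 with ethanol, and Ri1 with 1 µM PEP1. No allele or agent beyond these is given in the labels, and no promoter of the RNAi construct, no duration of the treatment and no number of plants per library is given in the sources used here. Only 1 RNAi line was sampled, so an effect of lowered OsPEP1 and any other difference between that line and the wild type cannot be told apart. The level of OsPEP1 itself and root marker genes were not analysed here, because neither the labels nor the count table pair locus IDs with gene names.

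In RNA interference, double-stranded RNA made from an introduced construct is cut into small RNAs, which guide the breakdown of transcripts with a matching sequence. The target transcript is therefore lowered and seldom removed. A rice locus ID carries the number of the chromosome, followed by a number that increases along it, so the order of the IDs gives the order of genes without their coordinates. The RefSeq gene table at hand is not keyed by these locus IDs, so the members could not be looked up in it. They are described by ID, level and place, and whether they have a known name or role was not examined.

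Library totals ranged from 15368736 to 21317008 counts, and the limit that a count of 0 allows, 3 counts, was 0.141 to 0.195 CPM. Several libraries stood apart in a principal component analysis of 23636 non-member loci. On the first component (49.5% of the variance), wild type ethanol replicate 1 lay at 9.76, against -66.6 and -56.7 for the other wild type ethanol libraries. Wild type PEP1 replicate 2 lay at -2.74, against 47.6 and 64.4 in its group. RNAi PEP1 replicate 3 lay at 22.5, against 64.6 and 86.0 in its group. RNAi ethanol replicate 2 lay at -33.8, against -78.5 and -56.4. These libraries thus lay towards the other treatment, and an exchange or mixing of samples was not tested. On the second component (15.6%), the RNAi replicate 2 libraries were the highest, at 47.9 with ethanol and 57.8 with PEP1. Nothing in the labels ties the replicates to separate plants or cultures. A p-value therefore covers the spread among these libraries only, and that spread may be technical. In whole roots, fewer cells of a type and less RNA per cell cannot be told apart.

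The 84 loci higher in the RNAi line held 4461 to 6466 CPM together in the RNAi libraries and 138 to 222 CPM in the wild type libraries. The 50 loci higher in the wild type held 4066 to 5102 CPM in the wild type ethanol libraries, 2198 to 2792 CPM in the wild type PEP1 libraries and 96.3 to 119 CPM in the RNAi libraries. These sums follow from the way the loci were chosen. The lower sums of the second set in wild type PEP1 contain the fall of 1 locus, LOC_Os12g13340, described further on. In the higher genotype, the median level of the 134 loci was 13.7 CPM, with a range from 2.28 to 1461 CPM. A level of at least 100 CPM was reached by 16 loci, 73 loci lay between 10 and 100 CPM, and 45 lay under 10 CPM.

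The smaller of the 2 fold differences, ethanol or PEP1, had a median of 9.54. It was 4 to 8 for 64 loci, 8 to 16 for 22, 16 to 32 for 12 and at least 32 for 36 loci. The level in the lower genotype had a median of 6.18% of the level in the higher one. It was under 1% for 34 loci and at least 10% for 48 loci. A difference on this scale is thus a spectrum, from loci just past the 4-fold limit to loci that are close to on/off. The plot of levels in both genotypes shows this spread.

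**Figure D1:**
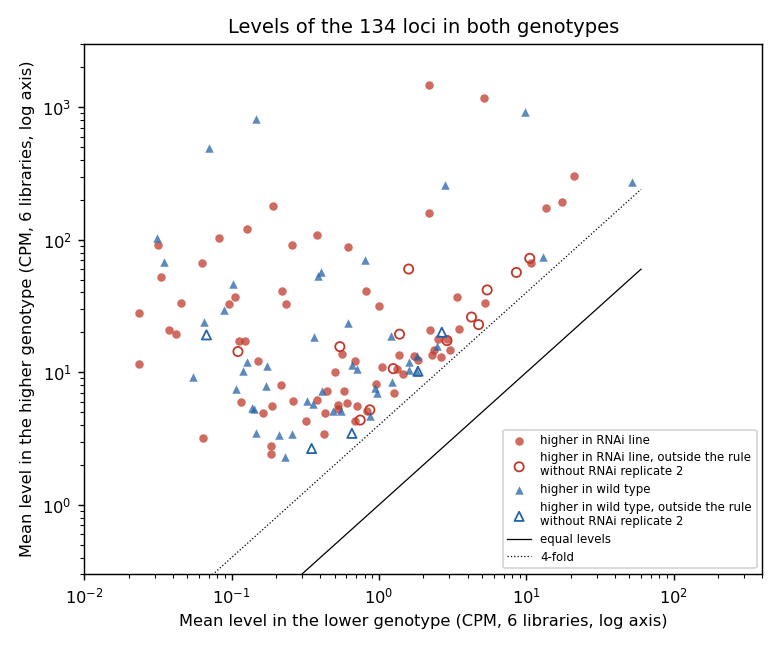
Mean level of each of the 134 loci in the higher genotype (vertical axis, CPM, log axis) against its mean level in the lower genotype (horizontal axis, CPM, log axis), over 6 libraries each. Circles are the 84 loci higher in the RNAi line and triangles the 50 higher in the wild type. Open symbols mark the 18 loci that did not meet the rule without both RNAi replicate 2 libraries, the solid line marks equal levels and the dotted line a 4-fold difference. Loci with levels from 2.28 to 1461 CPM spread from the 4-fold line upwards.

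The highest level in the RNAi line was that of LOC_Os07g25050 on chromosome 7. Its levels were 1035, 1746 and 1180.1 CPM in RNAi ethanol and 2258, 1662 and 888 CPM in RNAi PEP1. With ethanol the wild type had 0.235, 0.462 and 0.313 CPM, and with PEP1 it had 0.196, 0.0651 and 11.8 CPM. The genotypes did not overlap in either treatment, and wild type PEP1 replicate 3 was the highest wild type library by far.

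LOC_Os07g24830, also on chromosome 7, had 1247, 1228 and 1105 CPM in RNAi ethanol and 1566, 869 and 1068 CPM in RNAi PEP1. Wild type ethanol had 0.118, 0.0578 and 0.188 CPM, and wild type PEP1 had 0.147, 0.521 and 30.1 CPM. The 30.1 CPM of wild type PEP1 replicate 3 came from 636 counts, while each of the remaining wild type libraries had 8 counts or fewer. LOC_Os07g25060, listed next to LOC_Os07g25050, had 87.7, 91.2 and 79.7 CPM in RNAi ethanol and 265, 325 and 110.1 CPM in RNAi PEP1. Its wild type counts were 2, 1 and 0 with ethanol and 0, 0 and 275 with PEP1, and here too the reads of the wild type lay almost wholly in PEP1 replicate 3.

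LOC_Os11g34270 kept a clear level in both genotypes. It had 314, 338 and 312 CPM in RNAi ethanol and 285, 233 and 330.1 CPM in RNAi PEP1. Wild type ethanol had 13.8, 29.6 and 19.7 CPM, and wild type PEP1 had 20.5, 23.7 and 19.3 CPM. The groups were far apart, and every wild type library had at least 235 counts, so that the low level was measured and not close to the counting limit. LOC_Os09g21360 had 165 counts or more in every wild type library. It had 190.2, 237 and 212 CPM in RNAi ethanol against 9.70, 12.4 and 18.5 CPM in wild type ethanol. Under PEP1, LOC_Os09g21360 had 123, 112 and 163 CPM in the RNAi line and 11.9, 19.5 and 9.50 CPM in the wild type.

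Among the loci higher in the wild type, LOC_Os07g32710 came close to on/off. It had 509.6, 961 and 826 CPM in wild type ethanol and 927, 994 and 633 CPM in wild type PEP1. The RNAi libraries held 12, 0 and 0 counts with ethanol and 2, 1 and 2 counts with PEP1. It met the rule through the 12 counts of RNAi ethanol replicate 1. LOC_Os12g13674 was similar, with 450.0, 944 and 748 CPM in wild type ethanol and 255, 369.7 and 204 CPM in wild type PEP1, against 4, 2 and 0 counts and 0, 0 and 2 counts in the RNAi line. LOC_Os06g21820 had 81.6, 62.2 and 51.8 CPM in wild type ethanol and 159, 95.8 and 165 CPM in wild type PEP1, and 3 counts in a single RNAi library.

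Among other loci higher in the wild type, the share of the level kept in the RNAi line varied. LOC_Os04g03579 had 314, 256 and 249 CPM in wild type ethanol and 32.7, 49.3 and 39.1 CPM in RNAi ethanol. Under PEP1 it had 283, 238 and 286 CPM in the wild type and 62.2, 72.3 and 59.0 CPM in the RNAi line. The RNAi mean was 19.3% of the wild type mean over both treatments, and the groups did not overlap. LOC_Os03g55389 likewise kept 17.7% of its wild type level, with 58.2 to 81.6 CPM over the 6 wild type libraries and 9.14 to 15.6 CPM over the 6 RNAi libraries. LOC_Os07g30240 kept less, 1.13%, with 56.0 to 85.3 CPM against 0.469 to 1.20 CPM.

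The reads in the lower genotype were spread over its libraries for most loci. In 83 of the 134 loci, all 6 libraries of the lower genotype had at least 1 count, and in 63 each had more than 2. In 23 loci a single library had more than 2 counts, so that these loci met the rule through that library alone. Wild type PEP1 replicate 3 took a special place here. Without it, 15 loci higher in the RNAi line no longer met the rule, and 1 locus higher in the wild type. Its reads at these 15 loci ranged from 3 to 275 counts and came to 0.184% to 15.7% of the mean of RNAi PEP1, with a median of 1.45%. LOC_Os10g04800 had 46 counts there and at most 1 count in each of the remaining wild type libraries, against 55.9 to 153 CPM in the RNAi line. Over the on/off loci higher in the RNAi line, wild type PEP1 replicate 3 summed to 23 counts, against 3 to 11 counts in each of the remaining wild type libraries. Among the 15 loci, another wild type library had a higher count at LOC_Os02g58150 (19), LOC_Os05g01010 (60), LOC_Os11g03940 (17) and LOC_Os11g34840 (30). At the rest of the 15, replicate 3 had the most reads. LOC_Os07g24830 and LOC_Os07g25050, which met the rule without it, had 636 and 249 counts there, against at most 8 in any other wild type library. Whether the reads of this library are transcripts of wild type roots or were carried over from an RNAi sample was not tested. The residual wild type level of loci whose reads lie mainly in this library is therefore uncertain.

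The genotypes did not overlap under ethanol in 124 of the 134 loci, where 17.2% of 20956 loci with a mean of at least 2 CPM in a genotype did not overlap. Under PEP1 it was 126 of 134, against 14.5% of those loci. Over all 6 against 6 libraries it was 123 of 134, against 2.98%. These counts follow from the rule and carry no further reading. All 10 loci that overlapped in a treatment were higher in the RNAi line by mean.

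In 9 of these 10 loci the RNAi mean rested on replicate 2, which was over 4 times the next RNAi library in both treatments. LOC_Os02g36140 had 0.373, 62.0 and 0.310 CPM in RNAi ethanol and 5.82, 266 and 5.04 CPM in RNAi PEP1. The wild type had 8.70, 3.12 and 1.82 CPM with ethanol and 15.5, 9.30 and 12.9 CPM with PEP1. RNAi replicates 1 and 3 thus lay below every wild type library of the same treatment, while replicate 2 lay far above. LOC_Os02g36210, in 1 run with LOC_Os02g36140 on chromosome 2, had 0, 71.2 and 0.0620 CPM in RNAi ethanol and 1.41, 286 and 2.52 CPM in RNAi PEP1. Its wild type levels were 1.94, 0.116 and 0 CPM with ethanol and 4.11, 1.63 and 1.75 CPM with PEP1, which overlapped the RNAi range in both treatments.

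The remaining loci of this kind were LOC_Os01g10110, LOC_Os01g13610, LOC_Os01g58280, LOC_Os02g36190, LOC_Os07g46846, LOC_Os11g31540 and LOC_Os11g39420. They were picked out after their values had been seen. Over the 9 loci, replicate 2 was 14.5 to 1149 times the next RNAi library under ethanol and 7.62 to 287 times under PEP1. Over all features of the table, 59 showed this pattern for RNAi replicate 2, 1 for RNAi replicate 3 and 0 for any other replicate number of either genotype. The tenth overlapping locus, LOC_Os05g12640, had 1.87, 0.109 and 8.86 CPM in RNAi ethanol against 1.41, 0.116 and 0.188 CPM in wild type ethanol. Without both RNAi replicate 2 libraries, 116 of the 134 loci still met the rule, and 13 of the 18 lost were higher in the RNAi line. For these 9 loci the label of a genotype difference therefore describes replicate 2 and not the RNAi line as a whole.

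**Figure D2:**
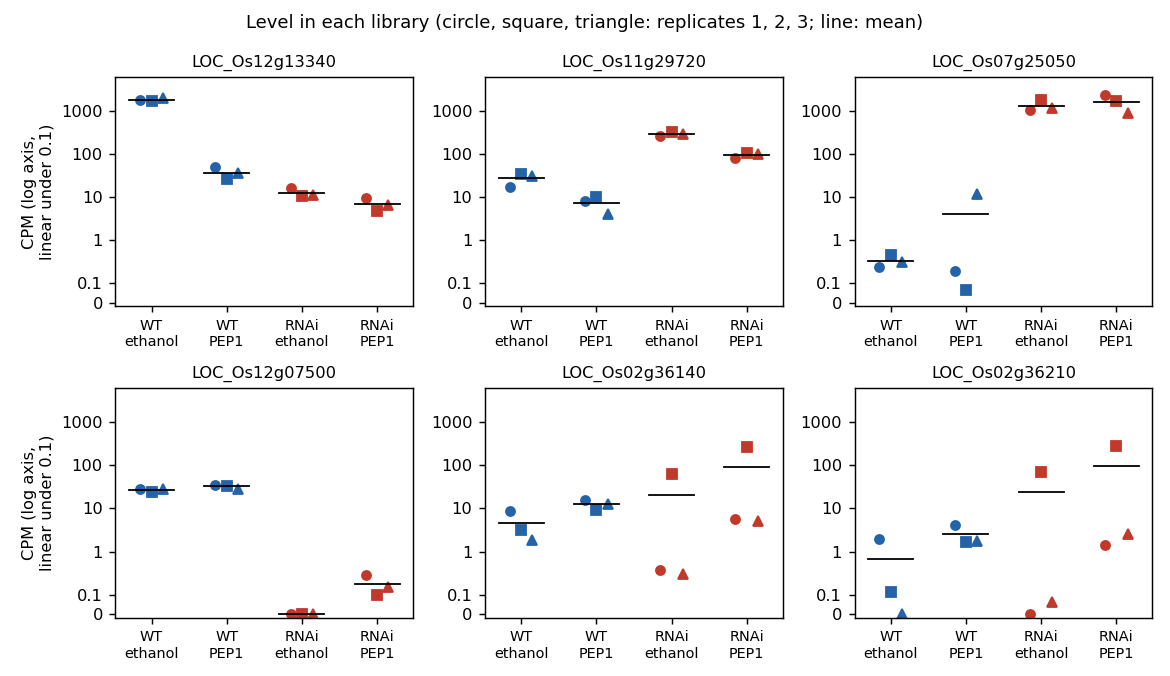
Level of 6 of the loci in each of the 12 libraries (CPM, log axis, linear under 0.1 CPM). Circles, squares and triangles are replicates 1, 2 and 3, blue is the wild type, red is the RNAi line, and lines are means of 3 libraries. LOC_Os12g13340 is low in wild type PEP1, LOC_Os07g25050 has 11.8 CPM in a single wild type library, and LOC_Os02g36140 and LOC_Os02g36210 are high only in RNAi replicate 2.

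The loci were unevenly spread over the chromosomes. Chromosome 11 held 35 of the 134 loci, which is 26.1%, while it held 5.90% of the loci tested. Chromosome 12 held 24 (17.9%, against 5.61%) and chromosome 7 held 18 (13.4%, against 7.62%). Per 1000 loci tested, this came to 24.1 on chromosome 11, 17.4 on chromosome 12 and 9.59 on chromosome 7. Chromosome 1, with the most listed loci, held 6 (1.74 per 1000), and chromosome 9 held 2. The direction differed between chromosomes as well. On chromosome 11, 30 of 35 loci were higher in the RNAi line, and on chromosome 12, 16 of 24 were higher in the wild type. The 30 include LOC_Os11g31540 and LOC_Os11g39420, whose RNAi means rested on replicate 2.

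**Figure D3:**
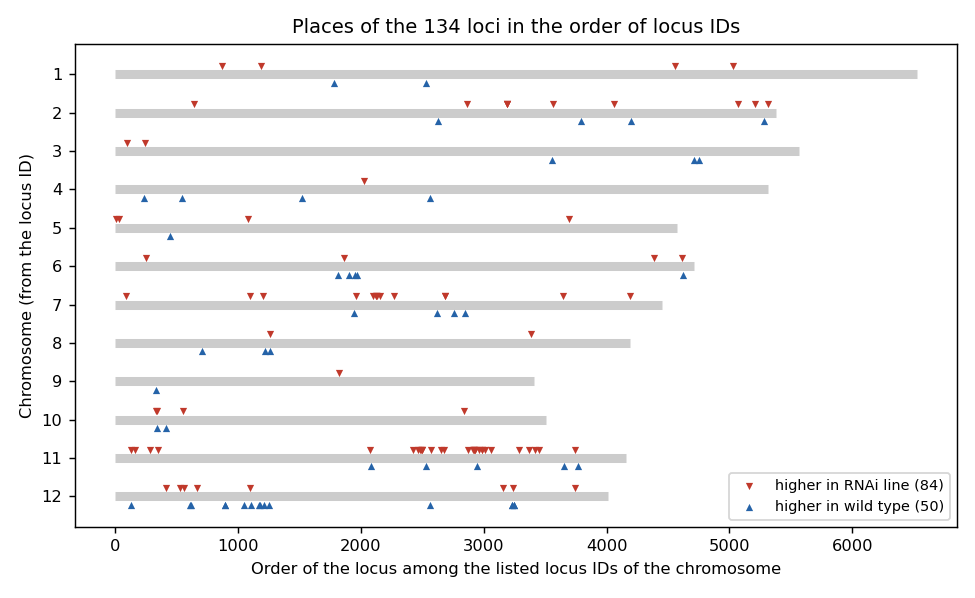
Place of the 134 loci in the order of the listed locus IDs of each chromosome (horizontal axis, rank of the locus, grey bars showing all listed loci; vertical axis, chromosome). Red triangles pointing down are the 84 loci higher in the RNAi line, blue triangles pointing up are the 50 higher in the wild type. Chromosomes 11 and 12 hold 35 and 24 loci, many of them close together.

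Members often lay close to each other. Counting members at most 10 listed loci apart as 1 run, 38 of the 134 loci fell into 14 runs, of which 9 held a single direction and 5 held both. Among the 9 is the run from LOC_Os02g36140 to LOC_Os02g36210, whose 3 members all rested on RNAi replicate 2. In 6 cases the members were neighbours in the list. A stretch of chromosome 11 from LOC_Os11g29000 to LOC_Os11g36190, chosen after the values had been seen, held 22 members among 637 listed loci, 20 of them higher in the RNAi line. The 20 include LOC_Os11g31540, whose RNAi mean rested on replicate 2. The same stretch held 12 on/off loci, of which 11 were higher in the RNAi line. Apart from members and on/off loci, 19.3% of its 207 tested loci differed between the genotypes under ethanol and 15.5% under PEP1. Over the whole of chromosome 11 it was 6.75% and 5.32%, and over all chromosomes 2.77% and 1.58%.

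The run with the most members went from LOC_Os12g36210 to LOC_Os12g36410 and held 5 members among 19 listed loci. LOC_Os12g36210, LOC_Os12g36240, LOC_Os12g36400 and LOC_Os12g36410 were higher in the wild type, with means of 18.8, 57.4, 67.9 and 2.66 CPM there. Their ranges in the RNAi line were 0.596 to 2.13, 0 to 2.13, 0 to 0.160 and 0.0497 to 1.17 CPM. LOC_Os12g36310, between them, went the other way, with 35.1, 29.8 and 37.3 CPM in RNAi ethanol, 8.77, 8.24 and 6.13 CPM in RNAi PEP1, and 3, 0 and 0 counts in wild type ethanol. This run thus held loci of both directions. Without both RNAi replicate 2 libraries, LOC_Os12g36410 did not meet the rule (3.18-fold under ethanol). The deposited table does not state how reads from near-identical copies were counted, so the values of such neighbours are uncertain where they are alike in sequence.

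The other long runs lay on chromosome 11 and held loci higher in the RNAi line. From LOC_Os11g34790 to LOC_Os11g34840, 4 of 6 listed loci were members. LOC_Os11g34790 had 119, 122 and 126 CPM in RNAi ethanol and 117, 110.1 and 128 CPM in RNAi PEP1, against 1 count over the wild type ethanol libraries and 15 in PEP1 replicate 3 of the wild type. LOC_Os11g34810 (46.9 to 83.0 CPM in the RNAi line) had 8 wild type counts, also in PEP1 replicate 3, and LOC_Os11g34820 (71.3 to 118 CPM) had 3 counts in that library and 1 in replicate 1. LOC_Os11g34840, in contrast, had 0.866 to 1.69 CPM in every wild type library and 5.86 to 8.68 CPM in the RNAi line. From LOC_Os11g29670 to LOC_Os11g29810, 4 of 15 listed loci were members, namely LOC_Os11g29670, LOC_Os11g29720, LOC_Os11g29790 and LOC_Os11g29810. All of these 4 had reads in every wild type library. Without both RNAi replicate 2 libraries, LOC_Os11g29670 did not meet the rule (3.95-fold under PEP1).

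Loci listed beside the members could be tested for a genotype difference, apart from the on/off loci among them, which meet the fold and the level of the rule. Of 529 tested non-member loci within 5 listed loci of a member, 92 (17.4%) differed between the genotypes under ethanol by edgeR's quasi-likelihood test at an adjusted p under 0.05, against 3.16% of all 24494 tested non-member loci. Of these, 51 were higher and 41 lower in the RNAi line, against 1.78% and 1.38% of all tested non-members. Under PEP1 83 of 529 (15.7%) differed, against 1.97%, with 47 higher and 36 lower, against 1.13% and 0.833%. A fit of only the groups compared gave 60 calls of 493 under ethanol, against 1.79%. These neighbours contain 24 on/off loci, all of which were called in both treatments, as their choice implies. Without on/off loci, 68 of 505 neighbours (13.5%) differed under ethanol, 40 higher and 28 lower, against 2.77% of 24397 loci (1.59% higher and 1.19% lower). Under PEP1 59 of 505 (11.7%) differed, 36 higher and 23 lower, against 1.58% (0.943% higher and 0.639% lower). All further values on neighbours in this section leave the on/off loci out, a choice made after the data were seen. Loci that are neighbours are not independent of each other, so these shares are given without a test.

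The share fell with distance from the nearest member. Directly beside a member, 19.1% of 110 loci differed under ethanol and 20% under PEP1. At 2 to 5 listed loci it was 11.9% and 9.37%, at 6 to 10 it was 8.40% and 6.76%, and at 11 to 20 it was 5.1% and 4.6%. Beyond 100 listed loci, 2.01% and 0.902% of 18294 loci differed. The plot of called loci by distance shows this decline in both treatments.

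**Figure D4:**
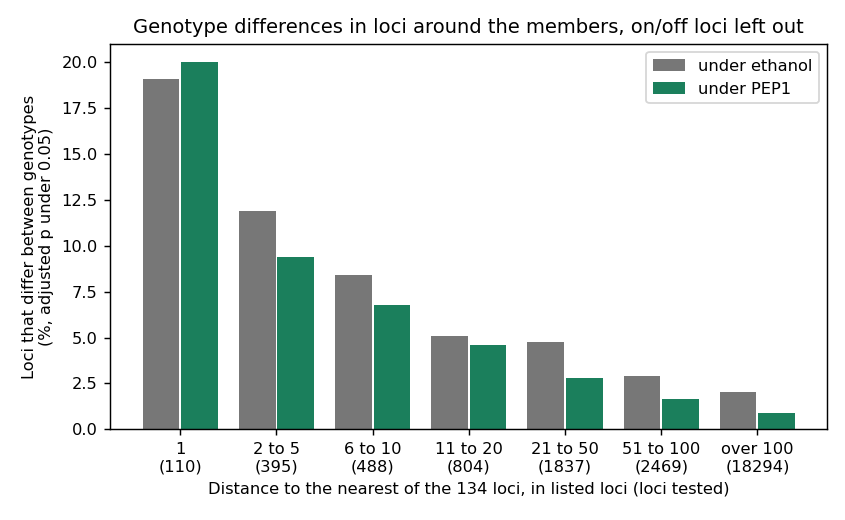
Share of tested loci, without members and on/off loci, that differed between the genotypes at an adjusted p under 0.05 (vertical axis, %) by distance to the nearest of the 134 loci (horizontal axis, listed loci, with the number of loci tested in brackets). Grey bars are the ethanol libraries and green bars the PEP1 libraries. The share falls from 19.1% and 20% directly beside a member to 2.01% and 0.902% beyond 100 listed loci.

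The direction of the called neighbours leaned to that of the member, on small counts around loci higher in the wild type. Over all 24397 loci without members and on/off loci, 387 were higher and 290 lower in the RNAi line under ethanol. Under PEP1 it was 230 and 156. A locus near members of both directions is counted in both sets below. Among 332 neighbours of loci higher in the RNAi line, 31 were higher and 12 lower in that line under ethanol. Among 184 neighbours of loci higher in the wild type, 10 were higher and 17 lower. Under PEP1 the counts were 28 and 10, and 10 and 14.

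The pattern was present on the chromosomes rich in members and on the rest. On chromosomes 7, 11 and 12, 16.5% of the loci within 5 listed loci differed under ethanol and 2.12% of those beyond 100. On the remaining 9 chromosomes it was 10.5% against 1.99%. Chromosome 11 had the highest share near members of these 3, 25.7%, and 1.51% far from them. On chromosome 7 the shares were 12.1% near and 2.5% far, and on chromosome 12 they were 8.54% and 2.05%. Among loci of at least 10 CPM the shares were 6.79% near and 2.13% far. Around the members that met the rule without RNAi replicate 2, 14.0% of 435 neighbours differed.

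The rule did not use the change from ethanol to PEP1 within a genotype as such, and this change was tested in each genotype. All 134 loci passed the filter on low counts over the 12 libraries. Within the wild type libraries alone 92 passed, and the 42 that did not were all higher in the RNAi line. Within the RNAi libraries alone 106 passed, and the 28 that did not were all higher in the wild type. In the wild type, 6 of the 134 loci changed under PEP1 by edgeR's quasi-likelihood test, which is 4.48%, against 5.19% of 25602 features tested. A single locus rose and 5 fell, where 2.54% of all features rose and 2.66% fell. In the RNAi line 12 loci (8.96%) changed, 6 up and 6 down, against 15.4% of all features, of which 8.68% rose and 6.68% fell. These counts hold 1 locus in each genotype that passed the filter only through the other genotype, LOC_Os12g06840 in the wild type and LOC_Os12g07500 in the RNAi line. Over the loci that passed within the genotype it was 5 of 92 (5.43%, against 5.30% of features) and 11 of 106 (10.4%, against 15.7%). All these shares lay near or under the background and say nothing particular about these loci. The counts moved with single libraries, and so did the share over all features. In the wild type 3 loci (2.24%, against 2.28% of all features) changed without wild type PEP1 replicate 3 and 10 (7.46%, against 11.3%) without wild type ethanol replicate 1. In the RNAi line 6 (4.48%) changed without RNAi PEP1 replicate 1, RNAi PEP1 replicate 2 or RNAi ethanol replicate 3, against 5.66%, 6.55% and 4.95%, and 7 (5.22%, against 6.96%) without RNAi ethanol replicate 1. Without both RNAi replicate 2 libraries 5 (3.76%, against 4.21%) changed there. Without these and wild type ethanol replicate 1, 15 (11.3%, against 11.1%) changed in the wild type and 14 (10.5%, against 9.04%) in the RNAi line. The rule limits these changes, because a 4-fold genotype difference had to hold in both treatments.

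In the genotype where they were higher, 8 loci changed. Of the 50 loci higher in the wild type, 2 changed there, both falling (4%, against 5.19% of all features, 2.66% falling). An unadjusted p under 0.05 was found for 6 of the 50 loci, against 4984 of 25602 features. The median log2 change of the 50 loci was -0.12. Of the 84 loci higher in the RNAi line, 2 rose and 4 fell there (7.14% in either direction, against 15.4% of all features), with a median of -0.16. Both shares lay under that of all features. The medians over all features tested were -0.00 in the wild type and -0.01 in the RNAi line.

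LOC_Os12g13340 had the largest change among these 8. It had 1786, 1688 and 1976 CPM in wild type ethanol and 49.1, 26.4 and 35.5 CPM in wild type PEP1. In the RNAi line it had 16.1, 10.5 and 11.1 CPM with ethanol and 9.71, 4.77 and 6.68 CPM with PEP1. All wild type PEP1 libraries lay far below the wild type ethanol libraries, and still above the RNAi libraries. Its log2 change in the wild type was -5.63 (SE 0.35, adjusted p = 1.93e-05, edgeR's quasi-likelihood test). In the RNAi line the log2 change was -0.79 (SE 0.30, adjusted p = 0.0919). The genotype difference under the rule was 142-fold under ethanol and 5.13-fold under PEP1.

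LOC_Os12g13674, higher in the wild type, fell there by 1.41 (SE 0.35, adjusted p = 0.0443), from a mean of 714 CPM (SD 249, n = 3) to 276 CPM (SD 84.9, n = 3). The groups did not overlap, but the call was lost in 11 of 19 alternatives, with an adjusted p of up to 0.179 without wild type PEP1 replicate 3. Any single wild type PEP1 library, wild type ethanol replicates 2 and 3, RNAi ethanol replicates 1 and 2 and RNAi PEP1 replicate 1 decided the call. The fall of LOC_Os12g13340 was kept in all 19.

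LOC_Os11g29720 fell in both genotypes. It had 255, 327 and 289 CPM in RNAi ethanol and 79.0, 107 and 96.9 CPM in RNAi PEP1. In the wild type it had 16.9, 34.8 and 30.8 CPM with ethanol and 8.17, 10.1 and 3.97 CPM with PEP1. Every PEP1 library lay below every ethanol library of its genotype, and the RNAi line stayed above the wild type throughout. The log2 changes were -1.59 in the RNAi line (SE 0.30, adjusted p = 0.00875) and -1.94 in the wild type (SE 0.32, adjusted p = 0.00581). The call in the RNAi line was lost without both RNAi replicate 2 libraries (adjusted p = 0.0535), and that in the wild type when only the groups compared were fitted (adjusted p = 0.0595). The difference between the genotypes in this change was 0.35 (SE 0.43) and did not pass the interaction test.

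Among the remaining loci higher in the RNAi line, LOC_Os12g36310 fell by 2.09 (SE 0.40, adjusted p = 0.00849), the levels being those of the run on chromosome 12 given above, and this call was kept in all alternatives. LOC_Os10g04690 fell by 1.42 (SE 0.26, adjusted p = 0.00673), from 9.33, 9.04 and 8.43 CPM to 3.57, 2.53 and 3.76 CPM. LOC_Os05g01010 fell by 1.11 (SE 0.28, adjusted p = 0.0258), from 22.3, 17.9 and 20.1 CPM to 8.21, 7.5 and 11.8 CPM. The PEP1 libraries of these loci lay below the ethanol libraries without overlap. The call of LOC_Os10g04690 was lost without both RNAi replicate 2 libraries (adjusted p = 0.0699). That of LOC_Os05g01010 was lost without any single RNAi library other than PEP1 replicate 3, with an adjusted p from 0.0539 to 0.0937, and without both replicate 2 libraries (0.139).

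A rise in the RNAi line was found for LOC_Os06g20960 and LOC_Os04g23550. LOC_Os06g20960 went from 12.9, 16.4 and 13.3 CPM to 46.6, 72.6 and 29.0 CPM, a log2 change of 1.86 (SE 0.43, adjusted p = 0.0184). LOC_Os04g23550 went from 4.27, 11.1 and 8.99 CPM to 15.5, 13.3 and 21 CPM, a log2 change of 1.04 (SE 0.32, adjusted p = 0.0490). In neither locus did the groups overlap. The call of LOC_Os06g20960 was lost without RNAi PEP1 replicate 1, RNAi PEP1 replicate 2, RNAi ethanol replicate 1 or RNAi ethanol replicate 3, with an adjusted p from 0.0541 to 0.0762, and without both replicate 2 libraries (0.111). That of LOC_Os04g23550 was lost in 13 of 19 alternatives, among them each left-out library except RNAi ethanol replicate 2 and wild type ethanol replicate 1, with an adjusted p of up to 0.114.

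**Figure D5:**
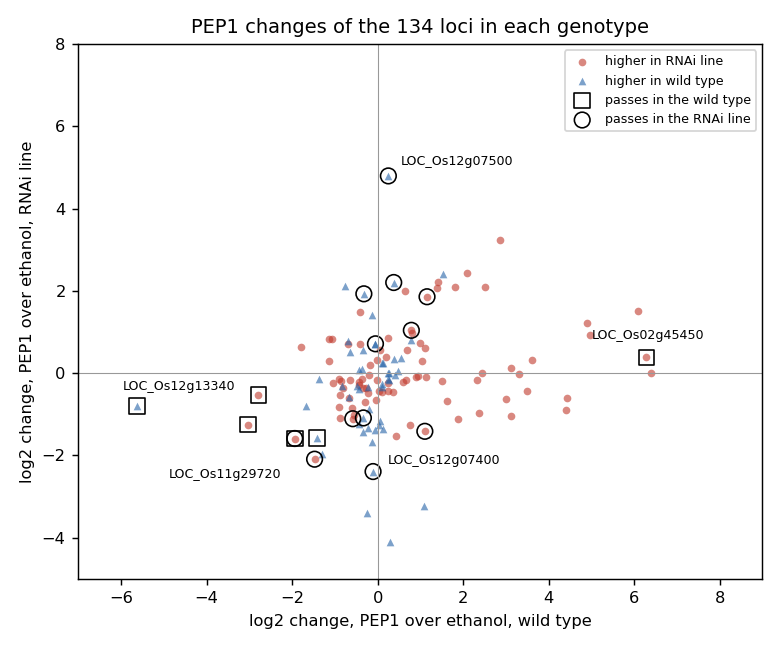
Log2 change from ethanol to PEP1 of each of the 134 loci in the wild type (horizontal axis) and in the RNAi line (vertical axis). Circles are loci higher in the RNAi line, triangles loci higher in the wild type, black squares mark the 6 loci that passed in the wild type and black rings the 12 that passed in the RNAi line. LOC_Os12g13340 stands apart at the left, with -5.63 in the wild type and -0.79 in the RNAi line. At the right, LOC_Os07g24830, LOC_Os07g25060 and LOC_Os10g04800 owe their place to wild type PEP1 replicate 3. Also plotted are the 42 and 28 loci that did not pass the low-count filter within the wild type and the RNAi line. Their changes in that genotype are imprecise.

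In the genotype where they were lower, some loci also changed. Apart from LOC_Os12g06840, LOC_Os04g03579 and LOC_Os12g13290, these were picked out after their values had been seen. LOC_Os02g45450, higher in the RNAi line, had 0, 1 and 0 counts in wild type ethanol and 49, 26 and 46 counts in wild type PEP1, up to 2.40 CPM. The ratio of the summed counts scaled to the totals was 107, with a 95% counting interval from 18.8 to 4253, and the edgeR quasi-likelihood adjusted p was 0.00190. In the RNAi line its levels were 4.16, 13 and 12 CPM with ethanol and 9.90, 16.9 and 10.2 CPM with PEP1, and the log2 change was 0.38 (SE 0.45).

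LOC_Os12g12514, higher in the RNAi line, fell in the wild type. It went from 0.764, 2.25 and 1.94 CPM to 0.0978, 0.586 and 0.0945 CPM (log2 change -2.79, SE 0.59, adjusted p = 0.0212). Its PEP1 libraries held 2 to 9 counts each, so the size of this change is imprecise. The call was lost without wild type PEP1 replicate 1 (adjusted p = 0.0952) or replicate 3 (0.0978), without wild type ethanol replicate 2 (0.0696) or replicate 3 (0.0632), and when only the groups compared were fitted (0.145). LOC_Os12g06840, also higher in the RNAi line, had 23, 7 and 8 counts in wild type ethanol and 1, 3 and 1 in wild type PEP1. It passed the filter only through the RNAi line, so its wild type call is not read as a change.

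Of the loci higher in the wild type, LOC_Os12g07400 and LOC_Os12g13290 fell in the RNAi line. LOC_Os12g07400 had 4.53, 2.67 and 6.32 CPM in RNAi ethanol and 0.657, 0.894 and 0.940 CPM in RNAi PEP1, against 15.9 to 23.5 CPM over the wild type libraries. Its log2 change was -2.39 in the RNAi line (SE 0.30, adjusted p = 0.00107) and -0.11 in the wild type (SE 0.26, adjusted p = 0.873). LOC_Os12g13290 went from 4.32, 3.70 and 3.41 CPM to 1.31, 1.64 and 2.32 CPM in the RNAi line, a log2 change of -1.09 (SE 0.32, adjusted p = 0.0444), and this call was lost in 10 of 19 alternatives, among them each single RNAi library except PEP1 replicate 3, with an adjusted p of up to 0.195 without both replicate 2 libraries.

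Rises in the RNAi line were found for LOC_Os12g14126, LOC_Os10g05570 and LOC_Os04g03579. LOC_Os12g14126 went from 5, 4 and 2 counts to 20, 15 and 13 counts (adjusted p = 0.0104), and LOC_Os10g05570 from 0.267, 1.09 and 0.372 CPM to 3.66, 2.78 and 1.38 CPM (adjusted p = 0.0405). LOC_Os04g03579 had a log2 change of 0.71 (SE 0.21, adjusted p = 0.0454), with the levels given above. The call of LOC_Os12g14126 was lost without both RNAi replicate 2 libraries (adjusted p = 0.0703). Those of LOC_Os10g05570 and LOC_Os04g03579 were lost in 10 and 9 of 19 alternatives, both among others without RNAi PEP1 replicate 1 or 2 and RNAi ethanol replicate 1 or 3, with an adjusted p of up to 0.131 and 0.143. LOC_Os12g07500, in 1 run with LOC_Os12g07400, had 0 counts in every RNAi ethanol library and 6, 2 and 3 counts in RNAi PEP1, against 24.1 to 35.4 CPM in the wild type. It passed the filter only through the wild type, so its call in the RNAi line is not read as a rise.

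The interaction, that is, the PEP1 change in the RNAi line minus that in the wild type, was tested next. The interaction also equals the genotype difference under PEP1 minus that under ethanol. Both were used by the rule to choose the loci, so counts of members here are no independent test. A single locus of the 134 passed, LOC_Os12g13340, which was also the only 1 of 25602 features (0.00391%). Its interaction was 4.84 on the log2 scale (SE 0.43, adjusted p = 0.00684, edgeR's quasi-likelihood test). The call was lost without both RNAi replicate 2 libraries (adjusted p = 0.0624), without RNAi ethanol replicate 2 (0.0586), without RNAi ethanol replicate 3 (0.0642) and without wild type PEP1 replicate 3 (0.0565). At an unadjusted p under 0.05, 24 of the 134 loci and 1353 of the 25602 features passed. LOC_Os07g24830 and LOC_Os11g34810 are among the 24 (unadjusted p = 0.0143 and 0.0293, edgeR's quasi-likelihood test). Their wild type reads lay wholly or almost wholly in PEP1 replicate 3. With DESeq2, 3 of 127 loci tested (2.36%, against 0.379% of all features) passed, LOC_Os12g13340, LOC_Os12g07400 and LOC_Os02g45450. LOC_Os12g07400 had an interaction of -2.29 (SE 0.40) and LOC_Os02g45450 one of -5.90 (SE 1.02), both with an adjusted p of 0.234 by edgeR's quasi-likelihood test.

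Some loci lay close to the limits of the rule. The smaller fold was 4.05 for LOC_Os12g36410 and 4.12 for LOC_Os11g34840, both inside, and 3.99 for LOC_Os07g14600 and 3.97 for LOC_Os11g34760, both outside. LOC_Os11g34760 lies in the list just before the run of LOC_Os11g34790. The lower of the high means was 2.01 CPM for LOC_Os12g06840 and 2.10 CPM for LOC_Os01g20950, inside, and 1.999 CPM for LOC_Os11g32410 and 1.98 CPM for LOC_Os12g13030, outside. LOC_Os11g34820 and LOC_Os06g21820 were inside with a highest count of 3 in the lower genotype, and LOC_Os10g29650 and LOC_Os10g04860 outside with 2. In all, 12 members had a highest count of 3 there, and 19 loci outside had 2, so that 1 read set the limit between these and the on/off loci.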

How the data were processed

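The authors deposited raw counts of reads per feature, whole numbers that were not normalised, for 57265 features in 12 libraries. Sources used here name no aligner, genome build, counting tool or strand setting, so overlapping, antisense and near-identical loci are uncertain. Features without a rice locus ID were kept in the fit but not among the members. CPM used the column sums. The members, lists and rules for named loci were chosen with earlier results of these data known. Named were the 8 highest loci per direction, up to 8 loci per genotype that passed the PEP1 test where they were higher, loci passing the interaction test, the 3 longest runs and the loci beside each limit of the rule. The RefSeq table (assembly ASM3414082v1) is not keyed by these locus IDs, so the members could not be matched to it, and sequences were not used here.

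Counts were tested with edgeR 4.0.16 (limma 3.58.1, R 4.3.3): filterByExpr, TMM, 1 fit of all 12 libraries with the 4 groups, the quasi-likelihood test and Benjamini-Hochberg adjustment over 25602 features, with a threshold of 0.05. SE is the absolute log2 change divided by the square root of F. The procedure was run on simulated counts with the same spread for every feature and no libraries standing apart. That setting is simpler than these data, so the run checks the code only. Floors and intervals cover counting error only. No 2 libraries of a group were duplicates (chi-square per degree of freedom at least 15.8). Alternatives were a replicate block, RLE size factors, DESeq2 1.42.0, no filter, only the groups compared and each library left out. Others were added after the data were seen. These left out both RNAi replicate 2 libraries, alone or with wild type ethanol replicate 1, or left the on/off loci out of the neighbours.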

Additional observations from a re-analysis of the deposited data

Results flagged for a closer look

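The PEP1 change of LOC_Os12g13340 differed between the genotypes, with an interaction of 4.84 on the log2 scale (SE 0.43, adjusted p = 0.00684, edgeR's quasi-likelihood test). The change was -5.63 in the wild type and -0.79 in the RNAi line, and every wild type PEP1 library was lower than every wild type ethanol library. The RNAi ethanol libraries already lay below the wild type PEP1 libraries. The interaction call was lost in 4 of 18 alternatives, with an adjusted p from 0.0565 to 0.0642 by the same test.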

How the results depend on the processing

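No named change reversed its sign past the threshold, and 4 of the 19 calls of named loci were kept in every alternative. The number of loci under the rule was 120 to 142 with each library left out. With each library left out, loci changed by PEP1 numbered 3 to 10 in the wild type (3 without PEP1 replicate 3) and 6 to 18 in the RNAi line (18, or 13.4%, against 21.4%, without wild type ethanol replicate 1), and the interaction gave 0 to 1. Neighbour counts in this paragraph include the on/off loci and stand against all tested non-members. With each library left out they ranged from 69 (12.7%, against 1.73%) to 91 (16.9%, against 3.06%) under ethanol. Under PEP1 they ranged from 57 (10.4%, against 1.14%) to 91 (16.7%, against 2.17%). DESeq2 called 12 of 127 loci in the wild type (9.45%, against 8.92% of all features), 31 in the RNAi line (24.4%, against 20.8%) and 3 for the interaction (2.36%, against 0.379%). Fits of only the groups compared called 3 of 92 loci in the wild type (3.26%, against 2.20%), 23 of 106 in the RNAi line (21.7%, against 19.8%) and 60 of 493 neighbours under ethanol (12.2%, against 1.79%). The interaction uses all groups, so it has no such fit, and it is built from the genotype differences that the rule used. Without both RNAi replicate 2 libraries, 5 loci changed in the RNAi line and 0 passed the interaction. Leaving out wild type ethanol replicate 1 as well gave 15 in the wild type. A window of 10 listed loci gave 143 (13.9%, against 3.16%) and 126 (12.3%, against 1.97%) neighbours, since it holds more loci. The causes of the other differences were not tested. With the replicate number as a block, 5 loci (3.73%, against 4.15%) changed in the wild type and 11 (8.21%, against 12.5%) in the RNAi line. In that fit 1 locus passed the interaction (0.746%, against 0.00781%). There, 81 neighbours (15.3%, against 2.73%) differed under ethanol and 71 (13.4%, against 1.60%) under PEP1. Same-numbered libraries of different groups correlated from -0.57 to 0.70, so the numbers were not taken as pairs. The 2 RNAi replicate 2 libraries correlated at 0.615, while libraries of different numbers reached 0.743. Whether the RNAi replicate 2 libraries share an origin was not tested, so they may not be independent of each other. Depth limits changes of loci with few counts.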
